A study of Homo sapiens with 4 samples.

Results

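The genes described are the heat shock factors HSF1 and HSF2, the cytosolic HSP90 genes HSP90AA1 and HSP90AB1, the HSP110 gene HSPH1, the mitochondrial chaperonin genes HSPD1 and HSPE1, the small heat shock gene HSPB1, and the co-chaperone genes BAG3 and STIP1. They were chosen by name as chaperone genes under heat shock factor control outside the HSP70 and DNAJ families, and they are 10 of the 58735 genes of the deposited table and 10 of the 13775 genes tested. The samples are RNA-seq libraries of OVCAR8 cells, a long-established line derived from a human ovarian cancer. The control group, shCON, is 2 libraries of cells given a scrambled short hairpin (genotype label WT), and the knockdown group, shFAM49B, is 2 libraries of cells given hairpins against FAM49B. Both groups received GIPZ lentiviral hairpin vectors by lipofection and were harvested 36 h later, per the labels' protocols, whereas the design text calls the knockdown stable. Neither the hairpin sequences nor any selection of the cells is stated. The design implies 1 comparison, that of shFAM49B with shCON. Levels are in deposited FPKM (the reads of a gene per kilobase of its length, scaled to depth). The length is that of all annotated exons of a gene together, so an order of levels between genes depends on it.

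HSF1 is the main transcription factor of the heat shock response. It is held inactive by chaperones, and when unfolded proteins draw those chaperones away it forms trimers that bind repeats of the unit nGAAn in the promoters of chaperone genes. HSF2 is a related factor that can form mixed trimers with HSF1. HSP90 is an abundant ATP-driven chaperone that matures kinases, steroid receptors and other clients in cancer cells, and STIP1 (also called HOP) bridges HSP70 to HSP90 so that clients can be handed over. HSPH1 is an HSP110 protein, a nucleotide exchange factor for HSP70. HSPD1 (HSP60) and HSPE1 (HSP10) form the folding chamber of the mitochondrial matrix and its lid. HSPB1 (HSP27) is an ATP-independent chaperone that holds unfolded proteins and binds actin and intermediate filaments, and BAG3 links HSP70 to small heat shock proteins in autophagy.

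The repeats that heat shock factors recognise were searched in RefSeq promoter windows of GRCh38.p14, from 250 bases before to 50 bases after each annotated start. Windows were used for 9 of the 10 genes (15 windows), and that of HSF1 was not used. The motif with 3 units was GAANNTTCNNGAA or TTCNNGAANNTTC, each of which is the reverse complement of the other, and both strands were searched. With all 9 specified letters it was present in 172 of 35116 windows in RefSeq (0.4898%), and in windows of 3 of the genes, HSP90AA1, HSP90AB1 and HSPD1. With at most 1 letter changed it was present in 2190 windows (6.236%), and in windows of 5 of the genes, which adds HSPB1 and STIP1. The shorter motif with 2 units, GAANNTTC or TTCNNGAA, each its own reverse complement and each contained in a match of 3 units, was present in 4737 windows (13.49%) and in windows of 5 of the genes. No match with 3 units, at most 1 letter changed, lay in the windows of HSF2, HSPE1, HSPH1 or BAG3, which says only that these letters are not in those windows. The stretches below are shown because they carry the matches of the 5 genes. That of HSP90AA1 also belongs to an inner start, as the gene runs to 102139699 on the minus strand. Its outer window, 102139700 to 102139999, held no match. Capitals mark bases inside a 13-base match with at most 1 letter changed, each stretch runs 5′ to 3′ on the gene's strand, and positions count from the annotated start, whose first transcribed base is 1.
HSP90AA1, chr14:102087105-102087132, minus strand, positions -88 to -61, 4 overlapping matches of which 1 has all letters, in an annotated exon of HSP90AA1: TTCCGGAAGGTTCGGGAGGCTTCTGGAA
HSP90AB1, chr6:44247711-44247863, plus strand, positions -232 to -80 of an inner start, 6 matches of which 2 have all letters, intronic in HSP90AB1 transcripts: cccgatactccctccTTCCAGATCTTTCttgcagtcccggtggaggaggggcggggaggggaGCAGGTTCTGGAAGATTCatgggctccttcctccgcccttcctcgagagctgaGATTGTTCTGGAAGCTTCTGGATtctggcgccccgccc
HSPD1, chr2:197500068-197500090, minus strand, positions -250 to -228 of an inner start, 3 matches of which 2 have all letters, in annotated exons of HSPD1 and of its divergent neighbour HSPE1: GCATTTTCTGGAAAGTTCTGGAA
HSPB1, chr7:76302476-76302518, plus strand, positions -197 to -155, 1 match with 1 letter changed, outside annotated transcripts: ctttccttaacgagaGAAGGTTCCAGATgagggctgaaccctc
STIP1, chr11:64186174-64186191, plus strand, positions 4 to 21 of an inner start, 2 matches with 1 letter changed each, in an annotated exon of STIP1: TTCTAGTAGGTTCCAGAA
These matches are a description of the windows and were not measured as binding sites.

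The 4 libraries held 15639559 to 16875353 reads. FAM49B stood at 7.41 and 7.60 FPKM in shCON and at 1.06 and 1.02 FPKM in shFAM49B, 7.21-fold lower (log2 fold change -2.06, SE 0.0807, limma adjusted p = 0.00054), so the libraries matched their labels. The deposited values had been scaled between libraries by median ratios, and over all tested genes the median log2 fold change was 0.05. Relative to each library's own reads this median was -0.13, and after rescaling to TPM it was -0.17 (the median gene shifted by -0.19 and -0.24), against which the values given below under those scalings can be read. Of the genes that passed the test, 62.7% were higher in shFAM49B as deposited, 26.8% after rescaling to TPM, 29.2% relative to reads, 52.0% after quantile normalization and 52.5% with median ratios over the tested genes. Of 12 ovarian carcinoma markers 5 were tested, with a summed level of 76.1 and 74.1 FPKM in shCON and 65.8 and 66.7 FPKM in shFAM49B. That sum was mostly KRT8 and KRT18, while EPCAM went from 2.94 and 2.96 FPKM to 0.129 and 0.345 FPKM (12.4-fold lower, limma adjusted p = 0.00224) and EMX2, named after its values were seen, rose 1.85-fold from 1.67 to 3.10 FPKM (limma adjusted p = 0.0099). The EMX2 call was lost without the filter (adjusted p = 0.0505), without shCON replicate 1 (adjusted p = 0.0512) and without shFAM49B replicate 2 (adjusted p = 0.0559). PAX8 was at 0.112 and 0.0804 FPKM in shCON and 0.0264 and 0.0271 FPKM in shFAM49B, and MUC16, named after its values were seen, was at or near 0 in every library, whereas the keratins KRT8 and KRT18 were at 23.2 FPKM or more in every library. All 9 stratified epithelial markers were lower in shFAM49B, from a summed 587 and 524 FPKM to 41.5 and 44.2 FPKM, with KRT5 going from 219 and 194 FPKM to 13.3 and 13.6 FPKM. Fibroblast markers summed to 6.58 to 7.18 FPKM and blood cell markers to 1.15 to 1.81 FPKM over the 4 libraries. The part of these marker differences in the results below was not tested, and in bulk RNA fewer cells of a type and less RNA per cell cannot be told apart. Whether replicate libraries were grown as separate cultures is not stated, so the p-values reflect the spread between these samples alone, which could be technical.

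Of the 10 genes, 8 rose in shFAM49B, 1 fell (HSPB1) and 1 (HSPH1) did not pass the test, at a limma adjusted p under 0.05. The rises were moderate, from 1.17-fold for BAG3 to 1.59-fold for HSPD1, and the fall of HSPB1 was 1.45-fold. Rises and falls were common in this comparison. Over all 13775 tested genes 26.4% were higher and 15.8% lower by the same rule, 42.2% in either direction. These 10 genes are abundant, and among the 2565 tested genes at or above 18.1 FPKM on average, the level of the lowest of them, 55.1% were higher and 9.82% lower, with a median log2 fold change of 0.26. The median of the 10 genes was 0.43, and that of 14 common reference genes was 0.45, with 8 of them higher, none lower and 6 not passed. The median of the 10 genes was thus close to that of the reference genes, and nothing particular to the 10 genes is read from their counts. Counts of the related lists below are to be read against the same shares.

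Both shFAM49B libraries lay above both shCON libraries for the 8 genes that rose, and below them for HSPB1. Of all tested genes 43.1% had the first pattern and 31.6% the second. HSPH1 was the only one of the 10 whose groups overlapped. Together the 10 genes took 0.634% and 0.589% of the reads of the shCON libraries and 0.728% and 0.707% of those of the shFAM49B libraries.

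**Figure D1:**
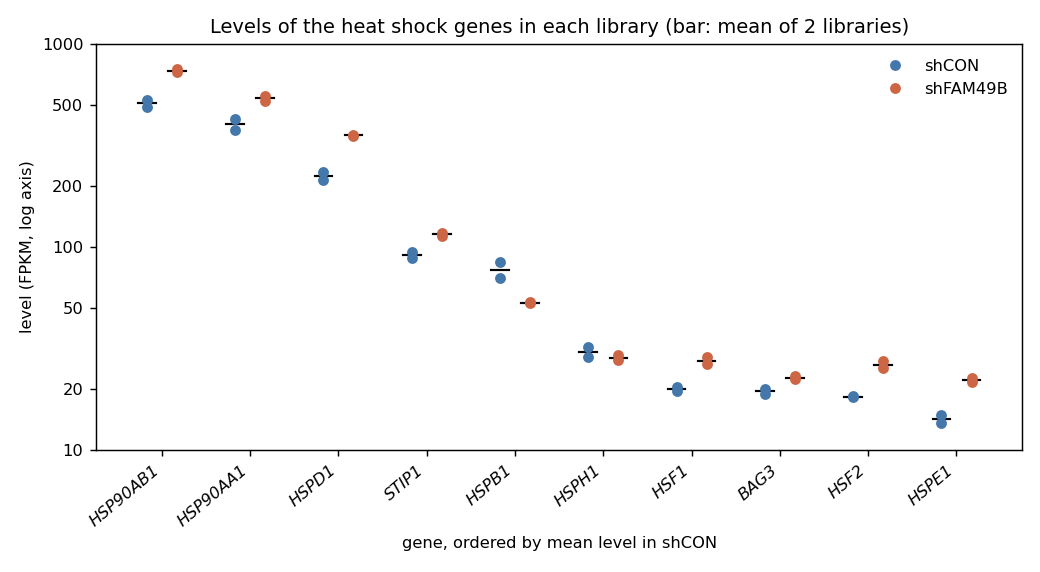
Level of each gene in each library (FPKM, log axis), with shCON in blue and shFAM49B in orange and a bar at the mean of the 2 libraries. Orange points lie above the blue ones for 8 genes, below them for HSPB1 (52.7 and 53.5 against 70.3 and 84.2 FPKM), and overlap with them for HSPH1.

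The heat shock factors themselves rose. HSF1 (ENSG00000185122, chromosome 8, 144291591 to 144314722, plus strand, GRCh38) stood at 20.5 and 19.5 FPKM in shCON and at 26.3 and 28.6 FPKM in shFAM49B. The groups did not overlap, and HSF1 was 1.38-fold higher, reaching 27.5 ± 1.63 FPKM (SD, n = 2, against an SD of 0.702 FPKM in shCON; log2 fold change 0.44, SE 0.0673, limma adjusted p = 0.00668). HSF2 (ENSG00000025156, chromosome 6, 122399546 to 122433119, plus strand) stood at 18.1 and 18.4 FPKM in shCON and at 27.2 and 25.3 FPKM in shFAM49B. Its groups did not overlap either, and it was 1.44-fold higher, from 18.2 ± 0.207 to 26.3 ± 1.36 FPKM (log2 fold change 0.50, SE 0.0621, limma adjusted p = 0.00389). The 2 factors were present at similar levels. The ratio of HSF1 to HSF2 was 1.13 and 1.06 in shCON and 0.967 and 1.13 in shFAM49B, so the groups overlapped in this ratio. Both kept their call under each of the 16 alternative settings, at log2 fold changes of 0.21 for HSF1 and 0.28 for HSF2 after rescaling to TPM. HSF1 shares 139 exon bases (2.62% of its own) with DGAT1 on the opposite strand, a triglyceride synthesis gene at 12.0 and 13.5 FPKM in shCON and 16.8 and 18.5 FPKM in shFAM49B. Whether the counting used strand is not stated, so reads in the shared bases cannot be assigned.

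Of 15 other heat shock factor genes and regulators of HSF1, 12 were tested, and 7 rose, 3 fell and 2 did not pass, with a median log2 fold change of 0.30 against 0.05 over all tested genes. Without a filter on low values 4 of them rose, and 2 rose after rescaling to TPM or relative to reads. EEF1A1, the translation elongation factor reported to take part in HSF1 activation, rose 1.60-fold from 908 to 1454 FPKM (log2 fold change 0.68, limma adjusted p = 0.00253). PLK1, a mitotic kinase that phosphorylates HSF1, rose 1.44-fold from 37.3 to 53.6 FPKM (adjusted p = 0.00521), and DAXX, a co-activator of HSF1, rose 1.31-fold from 21.5 to 28.2 FPKM (adjusted p = 0.00547). The acetyltransferase genes moved the other way. CREBBP fell 1.53-fold from 12.8 to 8.34 FPKM (adjusted p = 0.00792) and EP300, whose product acetylates HSF1 and which was named after its values were seen, fell 1.35-fold from 14.7 to 10.9 FPKM (adjusted p = 0.00858). DAXX lost its call after rescaling to TPM (adjusted p = 0.0731) and relative to reads (adjusted p = 0.0506), and EEF1A1 without the filter (adjusted p = 0.0863). HSF4 and HSF5, named here although outside the naming rule, were not tested. HSF4, the lens factor, was at 0.831 to 1.00 FPKM in the 4 libraries, and HSF5 was at 0 in all of them.

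Cytosolic HSP90 transcripts were the most abundant of the 10 genes, and both rose. HSP90AB1 (ENSG00000096384, chromosome 6, 44246166 to 44253888, plus strand), the constitutive beta form, stood at 531 and 489 FPKM in shCON and at 724 and 752 FPKM in shFAM49B. Its groups did not overlap, and it was 1.45-fold higher, from 509.9 ± 29.3 to 738 ± 19.8 FPKM (SD, n = 2; log2 fold change 0.53, SE 0.0696, limma adjusted p = 0.0044). HSP90AA1 (ENSG00000080824, chromosome 14, 102080738 to 102139699, minus strand), the stress-inducible alpha form, stood at 428 and 378 FPKM in shCON and at 553 and 526 FPKM in shFAM49B. It was 1.34-fold higher without overlap, from 403 ± 35.5 to 539.6 ± 19.5 FPKM (log2 fold change 0.42, SE 0.0815, limma adjusted p = 0.0127). Their levels ranked above 99.8% and 99.7% of tested genes, and the sum of both was 959 and 867 FPKM in shCON and 1278 FPKM in each shFAM49B library. The ratio of HSP90AB1 to HSP90AA1 was 1.24 and 1.29 in shCON and 1.31 and 1.43 in shFAM49B. Per length the constitutive form was thus above the inducible one in every library, but by reads the order was the reverse. HSP90AA1 had 37911 and 36688 reads in shCON and 44530 and 41288 in shFAM49B, and HSP90AB1 had 26673 and 26959 against 33088 and 33544. The order depends on the lengths used, 5248 bases for HSP90AA1 and 2980 for HSP90AB1.

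These HSP90 calls depended on the scaling. Under quantile normalization the log2 fold change of HSP90AA1 turned to -0.25 (adjusted p = 0.0446) and that of HSP90AB1 to -0.082 (adjusted p = 0.307). HSP90AA1 also lost its call after rescaling to TPM (0.18, adjusted p = 0.119), relative to reads (0.20, adjusted p = 0.0936), without the filter of 1 FPKM on average (adjusted p = 0.0991), without shFAM49B replicate 1 (adjusted p = 0.0864) and without shFAM49B replicate 2 (adjusted p = 0.0714). HSP90AB1 kept its call after rescaling to TPM (0.29, adjusted p = 0.0137) and relative to reads, and lost it without the filter (adjusted p = 0.0659) and without shFAM49B replicate 2 (adjusted p = 0.0517).

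Near-identical copies could take reads from the HSP90 genes. The table names 4 pseudogenes of HSP90AA1 and 5 of HSP90AB1, which together held at most 0.483% and 0.359% of the reads of gene and copies in any library. HSP90AA2P was at 4.94 and 4.28 FPKM in shCON and 5.85 and 4.93 FPKM in shFAM49B and did not pass the test. HSP90AB3P was at 2.02 and 1.64 FPKM against 2.97 and 3.54 FPKM and passed (log2 fold change 0.59), but not without the filter (adjusted p = 0.0737), without shCON replicate 2 (adjusted p = 0.0754) or without shFAM49B replicate 2 (adjusted p = 0.0813). Adding the reads of copies changed no call of the 10 genes. The counter is not given, so reads that fit both a gene and its copy may have been counted in neither. Adding the copies cannot recover such reads, for the HSP90 genes or the others. HSP90AA1 shares 197 exon bases (3.75%) with WDR20 on the opposite strand, which stood at 2.54 to 2.99 FPKM over the 4 libraries.

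STIP1 (ENSG00000168439, chromosome 11, 64185272 to 64204543, plus strand), the adaptor between HSP70 and HSP90, stood at 94.8 and 88.2 FPKM in shCON and at 113 and 117 FPKM in shFAM49B. The groups did not overlap, and STIP1 was 1.26-fold higher, from 91.5 ± 4.63 to 115 ± 3.16 FPKM (SD, n = 2; log2 fold change 0.33, SE 0.0621, limma adjusted p = 0.012). Both HSP90 transcripts together outnumbered those of STIP1, per length, by 10.1 and 9.83 in shCON and by 11.3 and 10.9 in shFAM49B. The call of STIP1 was lost after rescaling to TPM (0.09, adjusted p = 0.223), relative to reads (0.10, adjusted p = 0.155), without shCON replicate 2 (adjusted p = 0.0521) and without shFAM49B replicate 2 (adjusted p = 0.0767), and its sign turned under quantile normalization (-0.076, adjusted p = 0.341).

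Among 28 other HSP90 family and co-chaperone genes, 27 were tested, and 13 rose, 5 fell and 9 did not pass, with a median log2 fold change of 0.20. Over all tested genes 26.4% were higher and 15.8% lower (median 0.05). Among those at or above 18.1 FPKM on average 55.1% were higher and 9.82% lower (median 0.26). Quantile normalization left 6 that rose, rescaling to TPM 7 and scaling to reads 8. TRAP1, the mitochondrial HSP90, rose 1.68-fold from 44.3 to 74.6 FPKM (log2 fold change 0.74, limma adjusted p = 0.00232). STUB1, the ubiquitin ligase CHIP that marks chaperone clients for degradation, rose 1.45-fold from 47.2 to 68.4 FPKM, and FKBP4, an immunophilin of steroid receptor complexes, rose 1.44-fold from 50.6 to 73.1 FPKM. PPID, the cyclophilin of the same receptor complexes, was named after its values were seen and fell 1.51-fold from 19.6 to 13.0 FPKM (adjusted p = 0.00577). AHSA1, the activator of the HSP90 ATPase, was also named after its values were seen, and stood at 42.3 and 43.6 FPKM in shCON and 44.8 and 49.3 FPKM in shFAM49B, without passing the test (adjusted p = 0.185). HSP90B1, the endoplasmic reticulum HSP90 and likewise outside the naming rule, rose 1.35-fold from 238 to 322 FPKM (adjusted p = 0.00479), but stood at -0.23 under quantile normalization and at an adjusted p of 0.0501 after rescaling to TPM.

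HSPH1 (ENSG00000120694, chromosome 13, 31134974 to 31162388, minus strand) stood at 32.0 and 28.6 FPKM in shCON and at 29.3 and 27.6 FPKM in shFAM49B. The groups overlapped, and the means were 30.3 ± 2.43 and 28.4 ± 1.17 FPKM (SD, n = 2; ratio 0.938, log2 fold change -0.09, 95% confidence interval -0.28 to 0.10, SE 0.0755, limma adjusted p = 0.389). A p that misses the threshold does not show equal levels. After rescaling to TPM HSPH1 passed as lower (-0.33, adjusted p = 0.0239), as it did relative to reads (-0.31, adjusted p = 0.0273), and it did not pass under quantile normalization (-0.26, adjusted p = 0.0606).

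HSPH1 works with HSP70, and the HSP70 genes HSPA8 and HSPA1B and the DNAJ gene DNAJB1 had larger folds than any of the 10 genes. DNAJB1, an HSP40 that delivers clients to HSP70, was at 19.2 and 18.8 FPKM in shCON and 67.2 and 70.8 FPKM in shFAM49B (3.63-fold, adjusted p = 0.000284). HSPA8, the constitutive HSP70, was at 92.0 and 86.0 FPKM against 241 and 254 FPKM (2.78-fold, adjusted p = 0.000697). HSPA1B rose 3.04-fold from 27.4 to 83.4 FPKM, but it has a near-identical neighbour, HSPA1A, so the split of reads between them is uncertain. HSPA6 was at 0.350 and 0.274 FPKM in shCON and 3.99 and 4.48 FPKM in shFAM49B (13.6-fold). It passed the filter of 1 FPKM on average only through shFAM49B. Its fold is a ratio to values near the floor, so no weight is put on it. Ratios within a library do not change with a single scaling factor per library, though quantile normalization can change them, and these were chosen after the values were seen. The ratio of HSPA8 to HSPH1 was 2.87 and 3.01 in shCON and 8.25 and 9.20 in shFAM49B, and that of DNAJB1 to HSPH1 was 0.600 and 0.657 against 2.30 and 2.57. Against the sum of both cytosolic HSP90 genes, HSPA8 was at 0.0959 and 0.0991 in shCON and 0.189 and 0.199 in shFAM49B. The groups were separate in each of these ratios, and exact permutation of 2 libraries against 2 cannot give a p below 0.333. Of the 13 HSP70, DNAJ and other HSP110 genes listed as HSF1 targets, 11 were tested, and 6 rose (HSPA6 among them), 1 fell and 4 did not pass (median 0.26). Over all tested genes 26.4% were higher and 15.8% lower, and among those at or above 18.1 FPKM on average 55.1% and 9.82% (median 0.26). Outside the naming rule, with alternatives not given, HSPH1's relatives HSPA4 (88.7 to 90.2 FPKM, limma adjusted p = 0.761) and HSPA4L (5.78 to 5.38 FPKM, adjusted p = 0.474) did not pass either. The gene that fell was DNAJA1, 1.42-fold from 41.8 to 29.4 FPKM (adjusted p = 0.00527).

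**Figure D2:**
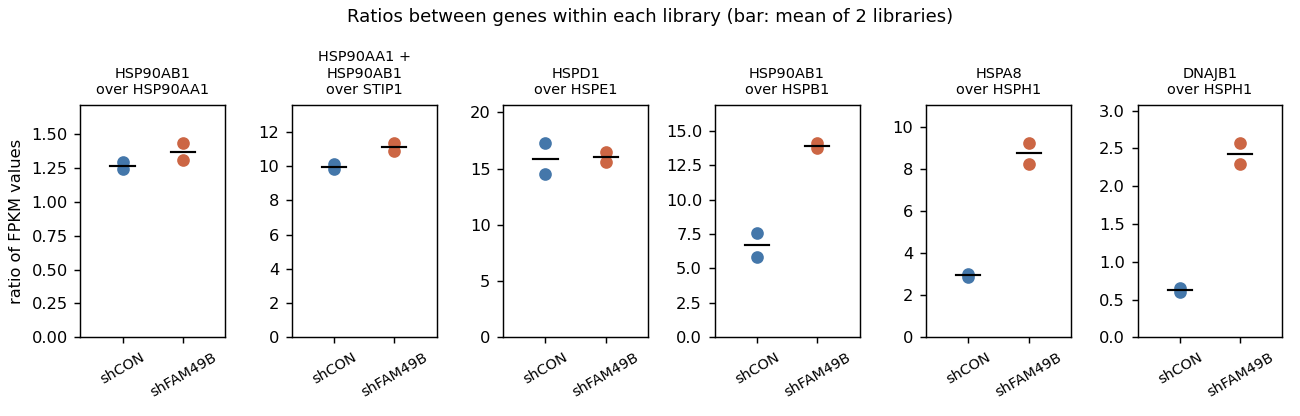
Ratio of FPKM values between pairs of genes within each library, 1 panel a ratio and each axis from 0, with points for libraries and a bar at the mean of 2. HSPA8 over HSPH1 and DNAJB1 over HSPH1 separate the groups widely, HSP90AB1 over HSPB1 goes from 7.55 and 5.81 to 13.7 and 14.1, and HSPD1 over HSPE1 overlaps.

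The mitochondrial chaperonin genes had the highest folds of the 10 genes and rose together. HSPD1 (ENSG00000144381, chromosome 2, 197486581 to 197516737, minus strand) stood at 233 and 214 FPKM in shCON and at 353 and 356 FPKM in shFAM49B. It was 1.59-fold higher without overlap, from 223 ± 13.1 to 354 ± 2.02 FPKM (SD, n = 2; log2 fold change 0.66, SE 0.0648, limma adjusted p = 0.00245). HSPE1 (ENSG00000115541, chromosome 2, 197499994 to 197503457, plus strand) stood at 13.5 and 14.7 FPKM in shCON and at 22.6 and 21.5 FPKM in shFAM49B. It was 1.56-fold higher without overlap, from 14.1 ± 0.884 to 22.1 ± 0.753 FPKM (log2 fold change 0.61, SE 0.0686, limma adjusted p = 0.0032). These genes lie head to head on opposite strands. The HSPD1 stretch printed above lies in annotated exons of both, upstream of an inner start of HSPD1. The ratio of HSPD1 to HSPE1 was 17.2 and 14.5 in shCON and 15.6 and 16.5 in shFAM49B, so the groups overlapped in it.

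HSPE1 was the least deeply counted of the 10 genes, with 450 to 685 reads a library, and its exons share 281 bases with those of HSPD1 on the opposite strand (14.2% of the exon bases of HSPE1 and 6.62% of those of HSPD1). Reads there cannot be assigned without strand. HSPE1 also shares 192 exon bases (9.71%) with the read-through gene HSPE1-MOB4, listed at 0 in 3 libraries and at 0.147 FPKM in the other. The table names 26 pseudogenes of HSPE1, which held 3.58% to 4.46% of the combined reads, and 17 of HSPD1, which held 1.12% to 1.38%. HSPD1P1 was at 5.67 and 5.89 FPKM in shCON and 8.73 and 10.6 FPKM in shFAM49B, and HSPE1P2 at 3.10 and 3.36 FPKM against 3.62 and 4.59 FPKM. HSPE1 kept its call under each of the 16 alternative settings, and HSPD1 under each but quantile normalization (0.02, adjusted p = 0.836). MOB4, whose gene overlaps one end of the span of HSPD1 without shared exon bases, was at 5.93 and 6.39 FPKM in shCON and 3.72 and 3.58 FPKM in shFAM49B, the opposite direction.

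Of 16 other mitochondrial chaperones and proteases, all tested, 7 rose, 1 fell and 8 did not pass, with a median log2 fold change of 0.17. TRAP1, which rose, is counted both here and among the HSP90 family genes above. The shares over all tested genes were 26.4% higher and 15.8% lower. Among tested genes at or above 18.1 FPKM on average the shares were 55.1% and 9.82% (median 0.26). The protease genes LONP1, from 35.0 to 54.6 FPKM (1.56-fold, limma adjusted p = 0.00292), and CLPP, from 40.4 to 60.7 FPKM (1.50-fold, adjusted p = 0.00358), rose by about as much as the chaperonin genes. CLPB, a disaggregase of the intermembrane space, rose 1.51-fold from 6.06 to 9.15 FPKM (adjusted p = 0.00503). HSPA9, the mitochondrial HSP70 that hands proteins on to the chaperonin, was named after its values were seen and stood at 60.9 and 57.6 FPKM in shCON and 59.9 and 62.3 FPKM in shFAM49B, without passing the test (0.04, adjusted p = 0.573). Its sign turned under quantile normalization, after rescaling to TPM, relative to reads and with median ratios over the tested genes.

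HSPB1 (ENSG00000106211, chromosome 7, 76302544 to 76304295, plus strand) was the gene of the 10 that fell. It stood at 70.3 and 84.2 FPKM in shCON and at 52.7 and 53.5 FPKM in shFAM49B, with the wider spread in shCON. The groups did not overlap, and HSPB1 was 1.45-fold lower, from 77.2 ± 9.82 to 53.1 ± 0.514 FPKM (SD, n = 2; log2 fold change -0.53, SE 0.0938, limma adjusted p = 0.0102). Its fall was larger after rescaling to TPM (-0.78), relative to reads (-0.75) and under quantile normalization (-0.84). Its call was lost without the filter on low values (adjusted p = 0.0552), without shFAM49B replicate 1 (adjusted p = 0.0569) and without shFAM49B replicate 2 (adjusted p = 0.0599). The ratio of HSP90AB1 to HSPB1 was 7.55 and 5.81 in shCON and 13.7 and 14.1 in shFAM49B. HSPB1 is abundant in stratified epithelia, and the 9 stratified epithelial markers were all lower in the same libraries (median log2 fold change -3.28). Their part in the result was not tested.

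BAG3 (ENSG00000151929, chromosome 10, 119651370 to 119677819, plus strand), the partner of small heat shock proteins, stood at 19.9 and 18.9 FPKM in shCON and at 23.1 and 22.2 FPKM in shFAM49B. Its groups did not overlap, and it was 1.17-fold higher, from 19.4 ± 0.690 to 22.6 ± 0.647 FPKM (SD, n = 2; log2 fold change 0.21, SE 0.06, limma adjusted p = 0.038). This was the least firm call of the 10 genes. It turned sign after rescaling to TPM (-0.020, adjusted p = 0.808) and relative to reads (-0.0012, adjusted p = 0.988), and it was lost under quantile normalization (adjusted p = 0.449), with median ratios over the tested genes (adjusted p = 0.101), without the filter (adjusted p = 0.0726) and without the mean-variance trend (adjusted p = 0.0713). Leaving out any 1 library also ended it, with adjusted p-values of 0.0862 without shCON replicate 1, 0.161 without shCON replicate 2, 0.134 without shFAM49B replicate 1 and 0.0898 without shFAM49B replicate 2.

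**Figure D3:**
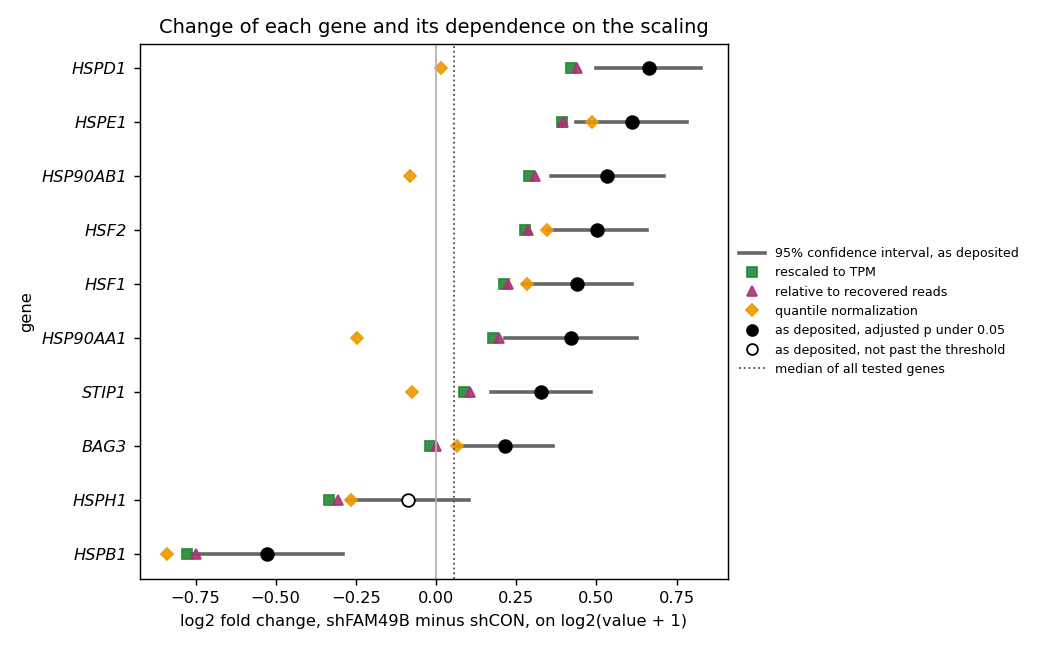
Log2 fold change of each gene (shFAM49B minus shCON) with its 95% confidence interval as deposited, and the value under 3 other scalings. HSPD1 is highest at 0.66 and HSPB1 lowest at -0.53, the quantile-normalized values of HSP90AA1, HSP90AB1 and STIP1 lie below 0, and those of BAG3 after rescaling to TPM and relative to reads lie at 0 or just below.

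Of 14 other small heat shock and BAG genes only 7 were expressed enough to be tested, and 2 rose, 2 fell and 3 did not pass, with a median log2 fold change of -0.26. HSPB8, the small heat shock protein that works in complex with BAG3, was at 12.1 and 11.7 FPKM in shCON and 6.16 and 6.92 FPKM in shFAM49B. It fell 1.83-fold (log2 fold change -0.78, limma adjusted p = 0.0024), as HSPB1 did. HSPB11, named after its values were seen, was at 5.51 and 6.77 FPKM in shCON and 6.43 and 6.13 FPKM in shFAM49B and did not pass the test (0.03, adjusted p = 0.815). BAG6, which guards unfolded membrane proteins in the cytosol, rose 1.54-fold from 41.0 to 63.0 FPKM (adjusted p = 0.00446). BAG5 fell 1.33-fold from 14.2 to 10.7 FPKM (adjusted p = 0.012), a call lost without shCON replicate 1 (adjusted p = 0.0699) and without shFAM49B replicate 2 (adjusted p = 0.0559). BAG1 rose 1.37-fold from 3.58 to 4.92 FPKM (adjusted p = 0.0368), a call lost without shCON replicate 1 (adjusted p = 0.164), shCON replicate 2 (adjusted p = 0.0959) or shFAM49B replicate 2 (adjusted p = 0.137). The BAG1 call was also lost without the filter (adjusted p = 0.121), after rescaling to TPM (0.20, adjusted p = 0.205), relative to reads (0.19, adjusted p = 0.184) and with median ratios (adjusted p = 0.0583). CRYAB, the alpha-B crystallin named after its values were seen, was at 0.176 and 0.196 FPKM in shCON and at 0 and 0.0220 FPKM in shFAM49B, too low to be tested.

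In order of FPKM in shCON, HSP90AB1, HSP90AA1, HSPD1, STIP1, HSPB1 and HSPH1 came first, each above the next without overlap. HSF1 (19.5 to 20.5 FPKM) and BAG3 (18.9 to 19.9 FPKM) overlapped, and HSF2 and HSPE1 were lowest. In shFAM49B the first 5 kept this order, while HSPH1 (27.6 to 29.3 FPKM), HSF1 (26.3 to 28.6 FPKM) and HSF2 (25.3 to 27.2 FPKM) overlapped as neighbours. BAG3 (22.2 to 23.1 FPKM) and HSPE1 (21.5 to 22.6 FPKM) overlapped at the lower end.

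The protein-coding genes whose pattern over the 4 libraries was most like that of HSP90AA1, by Euclidean distance of centred log2(FPKM + 1) values, were SRP72 (distance 0.0122), TCAF1 (0.0355) and MTSS1 (0.0381). Those most like HSPH1 were SUCLA2 (0.0120), TMEM64 (0.0143) and TRIM39 (0.0149). With 4 libraries such nearness describes these libraries only.

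Beyond the lists above, 25 further genes of the heat shock response were listed, among them chaperone genes such as TCP1, CCT4, CCT5 and CLU. Of these 25 genes 24 were tested, and 10 rose, 3 fell and 11 did not pass (median log2 fold change 0.18). ATF3, a stress transcription factor, rose 1.54-fold from 37.2 to 57.5 FPKM (limma adjusted p = 0.0024). HMOX1, heme oxygenase, fell 1.79-fold from 11.3 to 6.33 FPKM (adjusted p = 0.00193), and CLU, the secreted chaperone clusterin, fell 1.71-fold from 30.6 to 18.0 FPKM (adjusted p = 0.00227). Quantile normalization left 6 that rose and 6 that fell.

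**Figure D4:**
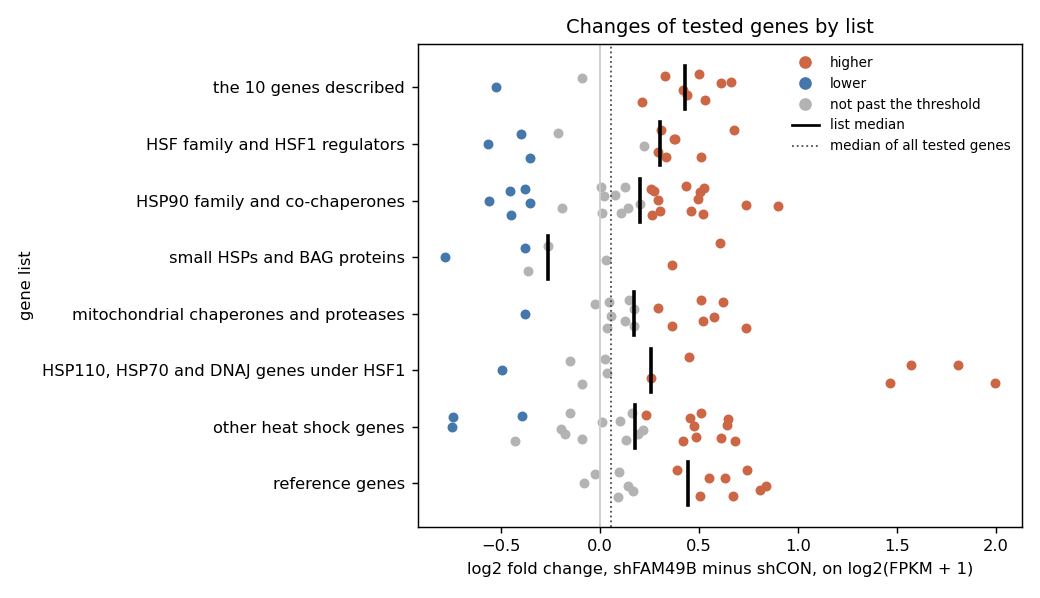
Log2 fold change of each tested gene in the 10 genes described and in 7 further lists, with orange for higher, blue for lower and grey for not past the threshold, a bar at each list's median and a dotted line at the median of all tested genes (0.05). The medians run from -0.26 (small heat shock and BAG genes) to 0.45 (reference genes), and HSPA6, DNAJB1, HSPA1B and HSPA8 lie furthest right. HSPA6 was near the floor in shCON and passed the filter only through shFAM49B.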

How the data were processed

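The authors deposited a table of FPKM (reads per kilobase, scaled to depth) for 58735 genes in 4 libraries, per the file headers. Mouse builds (GRCm38, mm10) are listed in the submitters' processing notes, but all 58735 identifiers, positions and lengths equal those of human GENCODE 29 genes, so coordinates are on GRCh38. The aligner and counter: not given in the sources used here. FPKM times length gave whole reads for 100% of values above 0 (tolerance 0.001 of a step). The implied depth factors were 1.08 and 1.10 times the reads in shCON and 0.941 and 0.919 times in shFAM49B. One read in 1 kb equals 0.0541 to 0.0668 FPKM.

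Values were tested on log2(FPKM + 1) with limma 3.58.1 (R 4.3.3), with empirical Bayes and trend, in the 13775 genes averaging 1 FPKM or more, 2-sided, with Benjamini-Hochberg adjustment over all of them and a threshold of 0.05. Residual degrees of freedom were 2 and prior ones 3.32. Folds are ratios of mean FPKM, while log2 fold changes understate changes of low genes. Between replicates, the mean chi-square of recovered reads per gene was 3.90 in shCON and 3.48 in shFAM49B, above counting noise. Named genes were the 10 genes, FAM49B, the 4 smallest p-values of each related list, certain markers, pseudogenes and overlapping genes from 1 FPKM, and the 3 most similar patterns for HSP90AA1 and HSPH1. Some genes that this rule names are not reported here. The genes and lists were chosen with earlier results of these data known. The procedure was tested on simulated data with 50 genes changed at each fold. It recovered 2% of them at 1.25-fold, 52% at 1.5-fold and 88% at 2-fold, and called 12 unchanged genes. Far fewer genes were changed in the simulation than the 5812 that passed in the data, and the Benjamini-Hochberg cutoff depends on that share. These rates thus need not hold for the comparison itself, where BAG3 passed at 1.17-fold. Small changes can still be missed. Alternatives were another pseudocount, filters, scalings, voom on recovered reads, no trend, a replicate block, reads of pseudogenes added and leaving out each library. Sequences came from RefSeq. Python 3.11.15, pandas 2.3.3 and numpy 2.4.6 were used.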

Additional observations from a re-analysis of the deposited data

How the results depend on the processing

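With 2 libraries a group, an exact permutation test cannot give a p below 0.333, so the calls rest on spread borrowed across genes, and at an unadjusted p under 0.05 the fit calls 7130 genes. Depth limits HSPE1 most among the 10 genes (450 reads in its thinnest library), and no alternative was added after the data were seen. Alternatives not mentioned here or beside a result of the 10 genes changed neither its direction nor its call, or moved a count by no more than 1.5 times, and the causes of the changes below were not tested. Over the 53 other named genes, 693 values kept direction and call, 60 lost the call, 7 gained it and 21 turned sign.

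All genes higher numbered 2185 without a filter on low values, 1597 after rescaling to TPM, 1722 relative to reads and 1897 to 2495 with 1 library left out (2124 without shCON replicate 1, 2342 without shCON replicate 2 and 1897 without shFAM49B replicate 2). All genes lower numbered 1378 without a filter, 1322 with a filter at 5 FPKM, 4362 after rescaling to TPM, 4173 relative to reads and 1027 to 1529 with 1 library left out (1027 without shCON replicate 1, 1142 without shCON replicate 2 and 1279 without shFAM49B replicate 2). Of the 10 genes, 5 were higher and 0 lower without a filter, 3 higher and 2 lower under quantile normalization, and 5 higher and 2 lower both after rescaling to TPM and relative to reads. With 1 library left out, 4 to 7 were higher (4 without shFAM49B replicate 2) and 0 to 1 lower (0 without either shFAM49B replicate). Among HSF1 regulators 4 rose without a filter, 2 after rescaling to TPM, 2 relative to reads and 3 to 5 with 1 library left out (3 without shFAM49B replicate 2, 4 without shCON replicate 2 or shFAM49B replicate 1). Among HSP90 family and co-chaperone genes 6 rose under quantile normalization, 7 after rescaling to TPM, 8 relative to reads and 7 to 11 with 1 library left out (7 without shFAM49B replicate 2), while 1 fell without a filter, 2 with a filter at 5 FPKM and 1 to 3 with any 1 library left out.

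Of small heat shock and BAG genes 1 rose without a filter, with a filter at 5 FPKM, after rescaling to TPM, relative to reads and with median ratios over the tested genes, and 1 to 2 with 1 library left out. Of the same genes 4 fell after rescaling to TPM, relative to reads and with voom, and 1 to 2 with 1 library left out. Of mitochondrial genes 4 rose after rescaling to TPM and relative to reads. None of them (0) fell without a filter, 2 fell under quantile normalization, after rescaling to TPM and relative to reads, and 0 to 1 with 1 library left out. Of HSP70, DNAJ and HSP110 genes 3 rose with a filter at 5 FPKM, and 2 fell under quantile normalization, after rescaling to TPM and relative to reads, with 1 to 2 when 1 library was left out (2 without shFAM49B replicate 1). Of other heat shock genes 6 rose under quantile normalization, while 6 fell under it, 8 after rescaling to TPM, 7 relative to reads and 5 with a filter at 5 FPKM, with median ratios and with voom.

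Signs turned under quantile normalization, as log2 fold changes, for HSP90AA1 (-0.25), HSP90AB1 (-0.082), STIP1 (-0.076), HSP90B1 (-0.23), CDC37 (-0.063), PTGES3 (-0.17), AHSA1 (-0.14), HSPA9 (-0.25) and WDR20 (0.028). They turned after rescaling to TPM for BAG3 (-0.020), AHSA1 (-0.11), HSPA9 (-0.20), HSP90AA2P (-0.020) and COL1A1 (-0.086). Relative to reads they turned for BAG3 (-0.0012), AHSA1 (-0.094), HSPA9 (-0.18), HSP90AA2P (-0.0013) and COL1A1 (-0.060). HSPA9 stood at -0.023 with median ratios over the tested genes, and WDR20 at -0.11 to 0.065 with 1 library left out. HSPB11 stood at -0.20 after rescaling to TPM, -0.16 relative to reads, -0.026 with median ratios over the tested genes and -0.094 to 0.16 with 1 library left out (-0.094 without shCON replicate 1).

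The groups share replicate numbers, but the difference between replicates 1 and 2 correlated by -0.0132 between the groups. This shows no shift shared by replicate number, but with 1 difference a group it cannot exclude that libraries were prepared in pairs. A fit with the replicate number as a block gave 3429 genes higher and 2036 lower and left 8 of the 10 genes higher and 1 lower, with BAG3 at an adjusted p of 0.0479 and HSP90AA1 at 0.0116.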
